A study of Mus musculus with 8 samples.

Results

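A set of 10 genes of one signalling route was followed across hearts of mice with and without a floxed IGF-1 receptor: the forkhead transcription factors Foxo1, Foxo3 and Foxo4, the muscle ubiquitin ligases Fbxo32 and Trim63, the sestrins Sesn1 and Sesn3, and the stress- and hormone-responsive genes Klf15, Ddit4 and Cited2. The genes were chosen by name, and every array probe whose transcript identifier mapped to one of the 10 symbols was taken. That gave 14 of 39429 probes, of which 13 were kept, and all 10 genes (of 19987 with a symbol on the array) entered the comparison among 21427 features. Probes entered when the scanner software flagged them as well above background on 4 or more arrays, and a gene with several such probes was represented by its brightest.

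Whole-heart RNA from male C57BL6 mice, in 8 samples, was hybridised to 1-colour Agilent arrays. Control mice (4 samples) were positive for Cre recombinase and carried no floxed receptor allele. Experimental mice (4 samples), labelled dtg here, were double transgenic (merCremer/+ IGFloxP/IGFloxP). Per the labels, animals were given 4OH-Tamoxifen at 8 months of age, 500 µg in 100 µl of peanut oil on each of 10 days, to remove exon 3 of the receptor gene, and hearts were taken 6 weeks later. Controls thus shared the Cre and, as the treatment text is worded, the drug. The labels name neither the promoter that drives the Cre nor whether each sample is a different animal, and the p-values therefore reflect the variation among these 8 samples alone. Each sample is called a heart below. In whole hearts, fewer cells of a type and less RNA per cell cannot be told apart.

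Insulin and IGF-1 receptors activate the kinase Akt, which phosphorylates FoxO proteins and keeps them in the cytoplasm, away from their target promoters. When this signal falls, nuclear FoxO raises transcription of genes for protein breakdown and growth restraint, among them the atrogin-1 gene Fbxo32 and the MuRF1 gene Trim63, which mark muscle atrophy. Sestrins and Ddit4 restrain the growth kinase complex mTORC1 by separate routes, and Klf15 and Ddit4 also respond to glucocorticoids. FoxO activity is set largely by phosphorylation and location of the protein, which an RNA array does not measure.

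Promoter sequence was available for 8 of the 10 genes, as 9 windows of 250 bases upstream of a transcription start (RefSeq, build GRCm38.p6), and 3 are shown because the results return to them. The windows were searched on both strands for the FoxO recognition letters TGTTTAC, whose other strand reads GTAAACA, for the E-box CACGTG used by clock factors, and for the D-box TTACNTAA bound by Dbp and its relatives. Capitals mark matches, and each sequence runs 5′ to 3′ on the gene's strand.
Trim63, chr4:134314870-134315119, plus strand: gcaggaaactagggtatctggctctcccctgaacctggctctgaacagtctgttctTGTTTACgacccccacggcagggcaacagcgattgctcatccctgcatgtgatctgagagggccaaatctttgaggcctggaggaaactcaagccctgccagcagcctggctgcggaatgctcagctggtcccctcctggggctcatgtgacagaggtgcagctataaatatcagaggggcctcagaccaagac
Klf15, chr6:90462326-90462575, plus strand: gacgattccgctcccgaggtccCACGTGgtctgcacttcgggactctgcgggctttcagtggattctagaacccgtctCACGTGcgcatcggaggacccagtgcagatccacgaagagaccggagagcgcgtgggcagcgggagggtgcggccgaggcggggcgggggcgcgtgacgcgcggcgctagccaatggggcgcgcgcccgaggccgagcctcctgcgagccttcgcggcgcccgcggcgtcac
Sesn3, chr9:14276051-14276300, plus strand: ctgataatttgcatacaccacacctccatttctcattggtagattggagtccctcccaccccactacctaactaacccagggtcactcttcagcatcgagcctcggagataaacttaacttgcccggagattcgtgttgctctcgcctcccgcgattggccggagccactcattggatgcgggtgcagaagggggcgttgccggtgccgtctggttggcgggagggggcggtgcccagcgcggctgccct
The Trim63 window held 1 FoxO match, from 194 to 188 bases before the start, and was the only one of the 9 windows with it. Among all 32851 mouse promoter windows of this length, 3.17% held that match. The Klf15 window held 2 E-boxes, at 228 to 223 and 172 to 167 bases before the start, which 0.429% of windows matched or exceeded, and the Cited2 window held 1, at 153 to 148 bases, against 6.02% of windows with at least 1. No D-box letters occurred in the 9 windows, the Sesn3 window included, against 2.06% of all windows. A match here is a description of letters and not a bound site.

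Signal is given as log2 of the processed intensity minus the 75th percentile of the same array, so 0 is that percentile and 1 unit is a 2-fold step in signal. Levels of different probes are not comparable with each other, since each probe hybridises with its own strength. The 75th percentile itself lay between 680 and 946 intensity units, between 59.1% and 71.5% of probes per array were well above background, and no probe was saturated. The arrays were on 2 slides, with 2 hearts of each group on each, and slide 2 against slide 1 passed an adjusted p of 0.05 for 10.2% of features. Control 4, dtg 3 and dtg 4 were less like the others, with highest correlations to any array of 0.984 to 0.988 against 0.994 to 0.995. The targeted gene, Igf1r, was at 0.18, 0.21, 0.38 and 1.04 in the controls and at -0.30, -0.21, 0.17 and 0.40 in dtg hearts, a difference of -0.43 (SE 0.24) with overlapping groups. The files do not say whether its probe lies in the excised exon.

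None of the 10 genes differed between dtg and control hearts in limma's test, and neither did any other feature. At an adjusted p below 0.05, 0 of the 10 genes and 0% of the 21427 features passed, with the smallest adjusted p at 1. At an unadjusted p below 0.05, 0 of the 10 passed, beside 0.747% of all features (0.616% higher in dtg and 0.131% lower), and groups of 4 were separate for 0 of the 10, beside 0.518% of all features. The means of 6 genes were higher in dtg and those of 4 were lower, and their median difference was 0.04 log2 units beside 0.01 over all features, of which 55.3% lay above 0. That median of the 10 was -0.07 within slide 1 and 0.16 within slide 2. The genes varied between hearts about as other features did, with a median SD over 8 hearts of 0.28 beside 0.25.

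**Figure D1:**
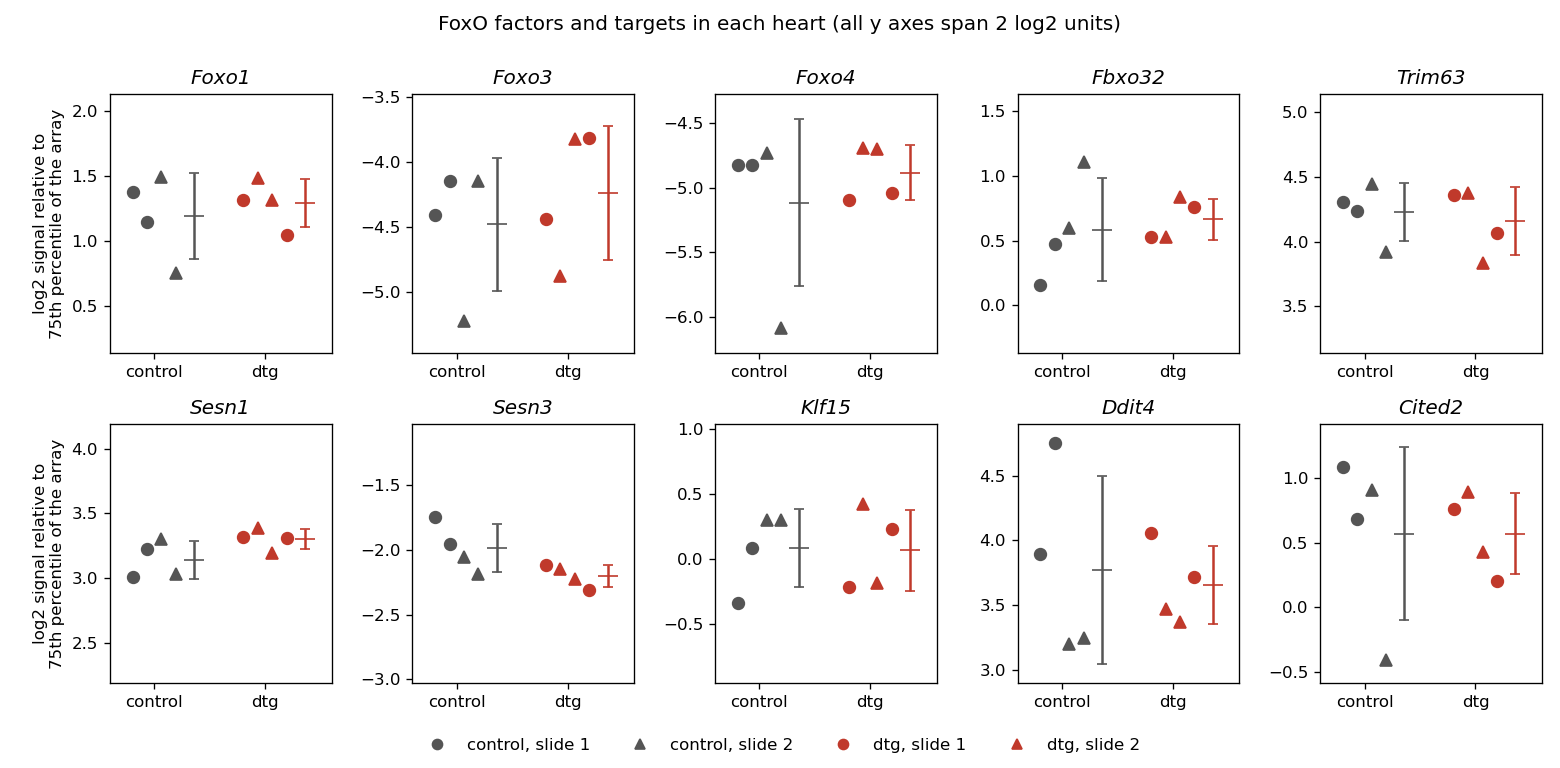
Signal of the 10 genes in each heart, on the same log2 scale (y axis, spanning 2 log2 units in every panel), for control and dtg hearts (x axis). Points are hearts, with circles for slide 1 and triangles for slide 2, and the bar beside them is the mean with its SD (n = 4); the groups overlap in every panel.

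Among the FoxO factors, Foxo1 was measured with strong signal, and the control hearts read 1.38, 1.15, 1.50 and 0.75 while the dtg hearts read 1.32, 1.49, 1.31 and 1.04. All 4 dtg values lay within the control range, and control 4 was the lowest heart. The difference was 0.10 log2 units (SE 0.18, 95% interval -0.32 to 0.52), a fold of 1.07 with an interval of 0.799 to 1.43. Foxo1, on mouse chromosome 3, encodes the family member best known for insulin-regulated metabolism. Its other probe (A_52_P453884) read 0.72, 0.61, 0.89 and 0.79 in controls and 0.77, 0.80, 0.82 and 0.70 in dtg hearts, a difference of 0.02. That probe did not show the low value in control 4, and the probes of this gene correlated at only r = 0.342 over the 8 hearts.

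Foxo3, on chromosome 10, encodes a FoxO protein known for driving atrophy genes in muscle. Its probe was dim, between 25.3 and 56.1 intensity units, and was well above background on 7 of 8 arrays. Control hearts read -4.41, -4.14, -5.22 and -4.14, and dtg hearts -4.44, -4.88, -3.82 and -3.81. The highest values, in dtg 3 and dtg 4, exceeded all controls, but dtg 1 and dtg 2 were each below 3 of the controls. The difference was 0.24 (SE 0.32, interval -0.51 to 0.99).

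Foxo4, on the X chromosome, was also dim, between 10.0 and 35.6 intensity units on its kept probe, which was well above background on 7 arrays. Control hearts read -4.83, -4.83, -4.73 and -6.08, and dtg hearts -5.10, -4.70, -4.71 and -5.04. Control 4 stood more than 1 unit below every other control, and without it the dtg mean was below the control mean, at a difference of -0.09, whereas with it the difference was 0.23 (SE 0.30). The other Foxo4 probe (A_55_P2113026) was well above background on 3 arrays and was not kept.

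The atrophy ligases did not pass the test. Fbxo32, on chromosome 15, encodes the F-box protein atrogin-1, and its probe is printed as 10 spots on each array. Control hearts read 0.16, 0.47, 0.60 and 1.11, and dtg hearts 0.53, 0.53, 0.84 and 0.76. All dtg values fell between the lowest and highest control, with a difference of 0.08 (SE 0.20, interval -0.39 to 0.55). The SD between the spots of 1 array was 0.03 to 0.08 log2 units, which covers spot noise within a hybridisation only, and the SD between hearts was 0.40 in controls and 0.16 in dtg.

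Trim63, on chromosome 4, encodes the RING ligase MuRF1, which marks sarcomere proteins for the proteasome, and is the gene whose promoter window held the FoxO match. Control hearts read 4.30, 4.23, 4.45 and 3.92, and dtg hearts 4.36, 4.37, 3.83 and 4.07. Control 4 and dtg 3 were the lowest of their groups, and the groups overlapped, with a difference of -0.07 (SE 0.17, interval -0.46 to 0.32). The other Trim63 probe (A_55_P2106745) gave a difference of -0.16 and correlated with the first at r = 0.699.

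The sestrins had the smallest p-values among the 10 genes, and neither passed. Sesn1, a stress-induced gene on chromosome 10 that is also a p53 target, read 3.01, 3.23, 3.30 and 3.03 in controls and 3.32, 3.38, 3.20 and 3.31 in dtg hearts. Of the dtg hearts, 3 exceeded every control and dtg 3 lay within the control range. The difference was 0.16 (SE 0.11, interval -0.09 to 0.41), or 1.12-fold with an interval of 0.939 to 1.33, at an unadjusted p of 0.179 and a limma adjusted p of 1.

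Sesn3, on chromosome 9, is induced directly by FoxO proteins in other cell types. Control hearts read -1.74, -1.96, -2.06 and -2.19, and dtg hearts -2.12, -2.15, -2.23 and -2.31. The highest 3 hearts were all controls, while control 4 lay inside the dtg range. The difference was -0.22 (SE 0.12, interval -0.50 to 0.07), or 0.861-fold with an interval of 0.709 to 1.05, at an unadjusted p of 0.115 and a limma adjusted p of 1. Within slide 1 it was -0.37 and within slide 2 it was -0.07, the first being the slide that held control 1 and control 2.

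Klf15, on chromosome 6, encodes a Krüppel-like factor of amino acid and lipid metabolism in heart. Controls read -0.34, 0.09, 0.30 and 0.30, and dtg hearts -0.22, 0.42, -0.18 and 0.23. Both groups spanned nearly the same range, and the difference was -0.02 (SE 0.21, interval -0.50 to 0.45).

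Ddit4, on chromosome 10, encodes REDD1, an inhibitor of mTORC1 that acts through the TSC complex. Controls read 3.90, 4.75, 3.20 and 3.25, and dtg hearts 4.05, 3.47, 3.37 and 3.72. The group difference was -0.12 (SE 0.35, interval -0.92 to 0.69), and the slides separated the hearts instead. The 4 hearts of slide 1 averaged 4.10 (SD 0.45) and the 4 of slide 2 averaged 3.32 (SD 0.12), with no overlap, a slide difference of -0.78 (SE 0.22, limma adjusted p = 0.0740 over all features). Slides were without overlap for 17.5% of all features.

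Cited2, on chromosome 10, encodes a partner of CBP and p300 that limits the hypoxia factor HIF-1. Controls read 1.09, 0.69, 0.90 and -0.40, and dtg hearts 0.76, 0.89, 0.43 and 0.20. Control 4 was lowest by a wide margin and the group means differed by less than their error, with a difference of 0.00 (SE 0.33, interval -0.76 to 0.76). Its other probe (A_55_P2116621) read -0.76, -0.81, -0.56 and -1.38 against -0.78, -0.64, -0.82 and -0.78, so both probes showed the low value in control 4, and they correlated at r = 0.864.

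**Figure D2:**
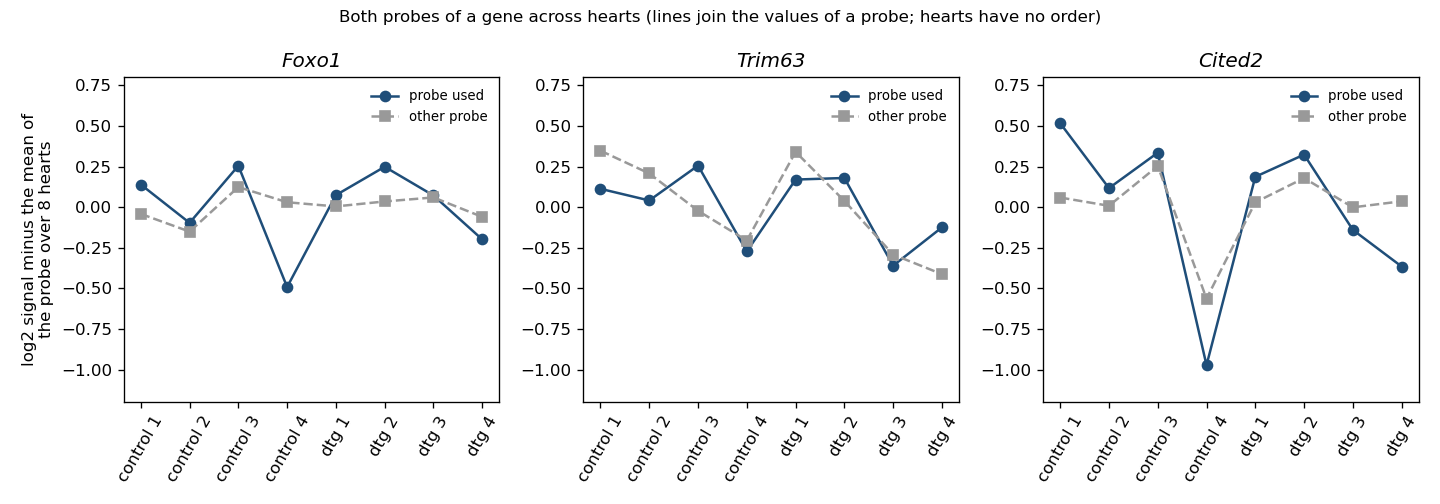
Signal of both kept probes of Foxo1, Trim63 and Cited2 in each heart (x axis), as log2 signal minus the mean of that probe over 8 hearts (y axis). Lines join the values of a probe only to guide the eye, and the low value of control 4 is in both Cited2 probes but in 1 of the Foxo1 probes.

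**Figure D3:**
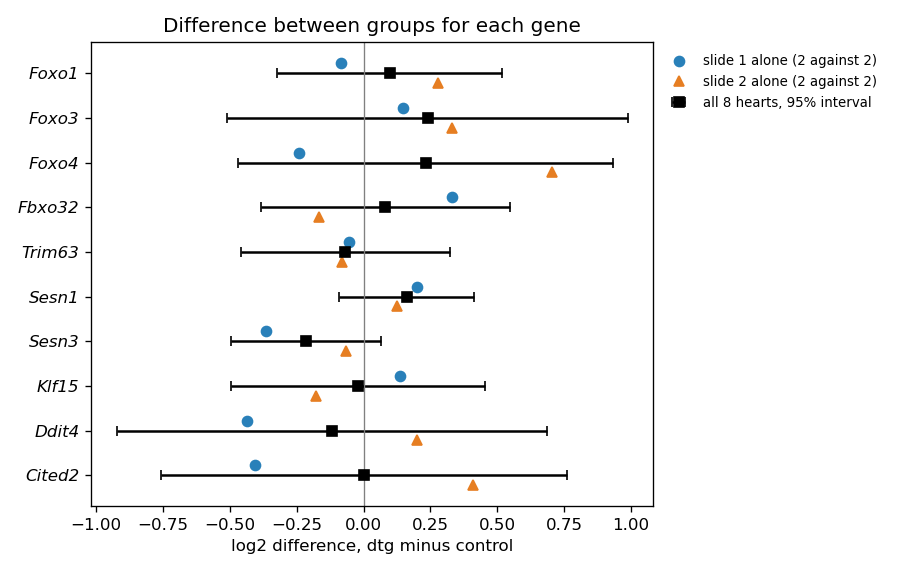
Difference between group means for each gene in log2 units, dtg minus control (x axis). Squares with bars are all 8 hearts with the 95% interval, circles are slide 1 alone and triangles are slide 2 alone; every interval includes 0, and 6 genes differ in sign between slides.

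The second question was whether targets move together from heart to heart. Over the 45 pairs of genes, Pearson's r was above 0 for 24 and below 0 for 21, with a median of 0.08. For 8 pairs the exact permutation p was below 0.05, and 0 passed after Benjamini-Hochberg adjustment over the 45 pairs. As background, 40.5% (Foxo1) to 62.4% (Foxo3) of all features had an r above 0 with a given gene. The smallest r of the 8 pairs in size was -0.726. With a given gene, 1.84% (Sesn1) to 29.1% (Cited2) of all features had an r near or above that size, in either direction. Among the 21 pairs of targets, 12 were above 0 and 9 below, and among the 21 pairs of a factor with a target, 11 were above and 10 below. Of the 3 pairs among the factors, 1 was above 0 and 2 were below. Under quantile normalization 8 pairs passed adjustment, and some of them were not among the 8 pairs above. They included Foxo3, whose probe was dim, with each of Foxo1, Fbxo32, Trim63 and Cited2. The others were Cited2 with each of Foxo1, Fbxo32 and Trim63, and Fbxo32 with Trim63. With values centred within slide, 2 pairs passed, Foxo1 with Cited2 at r = 0.971 and Foxo3 with Trim63 at r = -0.988. Both used the brightest probe of each gene, and r with the other Foxo1 and Trim63 probes is given below for uncentred values. The points share arrays, so a library that stands apart moves several pairs at once.

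Fbxo32 and Cited2 ran in opposite directions, with r = -0.908 (exact permutation p = 0.00146, adjusted over the 45 pairs 0.0658) and rho = -0.738. Without control 1 and control 4, the hearts farthest from the median, r was -0.758. Of all other features, 0.818% had an r with Fbxo32 at least as low, and 4.94% had one with Cited2 at least as low.

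Foxo1 and Cited2 ran together, with r = 0.914 (exact permutation p = 0.00389, adjusted 0.0876) and rho = 0.905. Without control 4 and dtg 4 the r fell to 0.513, so the relation rested on those hearts. With the other Foxo1 probe, r with Cited2 was -0.004, so the relation held for 1 probe of Foxo1 and not for the other.

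The ligases did not run together: Fbxo32 and Trim63 had r = -0.726 (exact permutation p = 0.0382, adjusted 0.215). Foxo3 and Trim63 had r = -0.822 (exact permutation p = 0.0136, adjusted 0.143), and -0.790 without control 3 and dtg 2. With the other Trim63 probe, r was -0.428 with Foxo3, whose own probe was dim. That Trim63 probe gave -0.787 with Fbxo32 and 0.683 with Cited2. Trim63 with Cited2 gave 0.782 and Fbxo32 with Sesn3 gave -0.802, with adjusted p of 0.143 each by the same exact permutation test. With the other Cited2 probe, r was 0.665 for the Trim63 probe used and 0.273 for the other Trim63 probe.

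**Figure D4:**
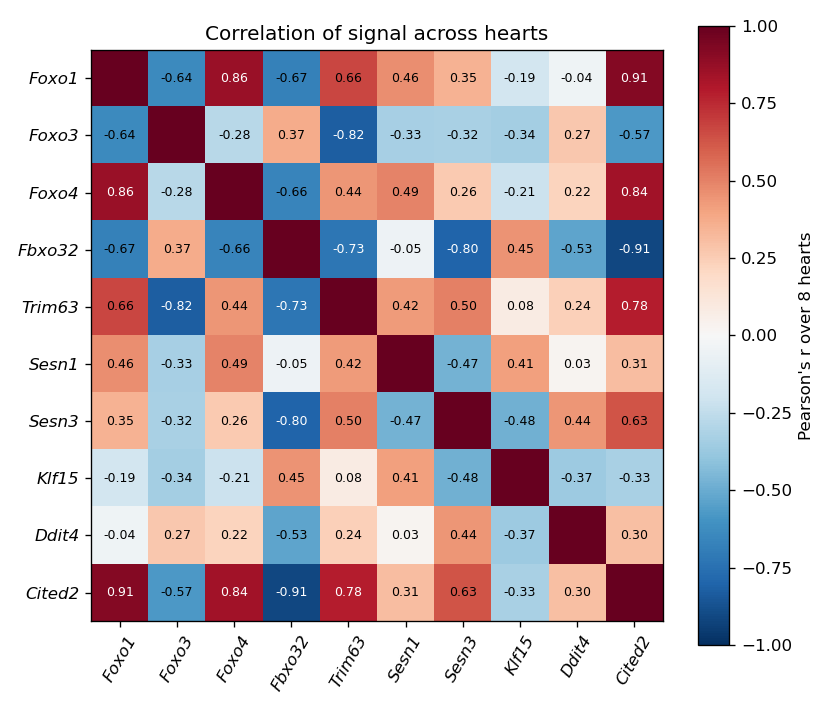
Pearson's r over 8 hearts for each pair of the 10 genes, with genes on both axes, red for values above 0 and blue for values below. Fbxo32 is opposite to Trim63, Sesn3 and Cited2, while Foxo1, Foxo4, Trim63 and Cited2 share positive values, and 0 of the 45 pairs passed adjustment. The other Foxo1 probe, not drawn, gave r of -0.011 with Foxo4, 0.042 with Trim63 and -0.004 with Cited2. Without control 4 and dtg 4, r of Foxo1 with Foxo4 was 0.36.

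Sesn3 was lower where the clock output gene Dbp was higher. Dbp encodes a PAR bZIP factor with a strong daily rhythm. Dbp read 2.35, 3.06, 4.62 and 4.98 in controls and 4.40, 4.62, 4.92 and 5.47 in dtg hearts, so control 1 and control 2 stood apart below the other 6 hearts, and they were also the hearts highest in Sesn3. Arntl, the BMAL1 gene that peaks opposite to Dbp, was highest in the same hearts, at 0.81 and 0.58 against -1.24 to -0.09 in the rest. Over 8 hearts r was -0.966 (exact permutation p = 0.000223, adjusted over 20 relations 0.00446) and rho was -0.952. Without control 1 and control 2, r over 6 hearts was -0.893 (exact permutation p = 0.0181, unadjusted) and rho was -0.886. With values centred within slide r was -0.968, and centred within group it was -0.956. None of 21397 other features had an r with Dbp as low as that of Sesn3. The relation no longer passed adjustment in 3 settings: with values centred within slide (exact permutation p = 0.0122), under quantile normalization (r = -0.741, exact permutation p = 0.0346) and under normexp without dark spots (r = -0.826, exact permutation p = 0.0092). The labels do not state the hour at which each heart was taken.

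Fbxo32 was higher where Dbp was higher, with r = 0.802 (exact permutation p = 0.0133, adjusted 0.133) and rho = 0.905 (adjusted 0.0456 by the same exact permutation test). Without control 4 the r was 0.893 (adjusted exact permutation p = 0.0437), whereas it was 0.614 without control 1 (exact permutation p = 0.142) and 0.569 without control 1 and control 2 (exact permutation p = 0.247). Of other features, 2.30% had an r as high. The other 8 genes had r with Dbp between -0.62 and 0.54, Klf15 among them at 0.54. With the mean of the atrial genes Myl7, Myl4 and Sln, which ranged from 2.17 to 6.58 between hearts, r lay between -0.60 for Foxo4 and 0.34 for Fbxo32, and 0 of those relations passed adjustment. The part of clock phase or atrial tissue in the group differences above was not tested.

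**Figure D5:**
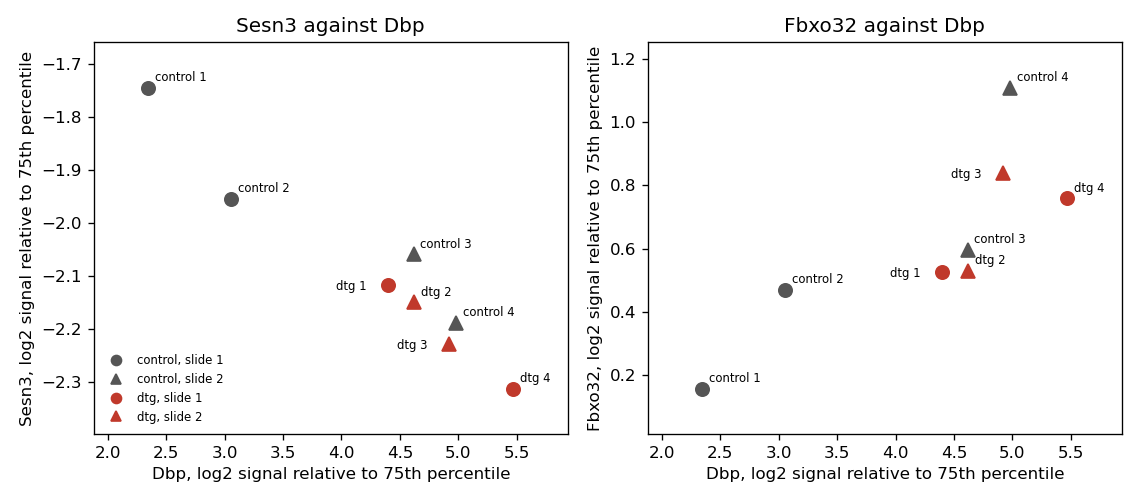
Signal of Sesn3 (left) and Fbxo32 (right) against Dbp in each heart, all on the same log2 scale. Circles are slide 1, triangles are slide 2, and control 1 and control 2 lie at the low end of Dbp; Sesn3 falls from -1.74 to -2.31 as Dbp rises from 2.35 to 5.47.

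The genes around this route were described by lists, with 0 genes past the adjusted threshold in each, beside 0% of all features. Medians of the lists of other FoxO targets, ubiquitin ligases, sestrin and mTORC1 genes, and Cited and hypoxia genes differed in sign between slides. Of 24 other FoxO targets, 9 were higher and 15 lower in dtg hearts, with a median of -0.02. They included Angptl4, an inhibitor of lipoprotein lipase, at -0.55 (SE 0.35), Pdk4, the kinase that shuts pyruvate dehydrogenase, at -0.37 (SE 0.33), and Eif4ebp1, the translation repressor, at 0.13 (SE 0.11). Of 20 ubiquitin ligase and proteasome genes of atrophy, 11 were higher and 9 lower with a median of 0.01, and the F-box gene Fbxo40 had the largest difference, at 0.49 (SE 0.64). Trim55, the MuRF2 gene, was at 0.16 (SE 0.39). Control 4 was the lowest heart for both genes, at -3.95 for Fbxo40 and -1.31 for Trim55. The other controls read -1.31 to -1.06 for Fbxo40 and 0.09 to 0.20 for Trim55. The dtg hearts read -2.15 to -0.98 for Fbxo40 and -0.74 to 0.27 for Trim55.

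Of 22 kinases and cofactors that act on FoxO, 9 were higher and 13 lower with a median of -0.02, and after Igf1r the smallest p belonged to the insulin receptor substrate Irs1, at -0.20 (SE 0.13). Of 19 sestrin and mTORC1 pathway genes, which include inhibitors, activators and mTORC1 components such as Mtor and Rptor, 14 were higher and 5 lower with a median of 0.03. Among the inhibitors, the GATOR1 gene Depdc5 was at 0.18 (SE 0.11), the tuberin gene Tsc2 at 0.53 (SE 0.31) and Sesn2, the third sestrin, at 0.04. Tsc2 read -3.86 to -3.73 in controls and -3.70, -3.86, -2.34 and -3.16 in dtg hearts, so its difference came from dtg 3 and dtg 4. Of 16 glucocorticoid-responsive genes, 12 were higher and 4 lower with a median of 0.06, with the clock gene Per1 at 0.43 (SE 0.32) and the chaperone gene Fkbp5 at 0.09.

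Klf15 targets were higher in 8 of 11 genes, with a median of 0.04. The proline oxidase Prodh was at 0.18 (SE 0.12) and the branched-chain transaminase Bcat2 at 0.14 (SE 0.12), while Kcnip2, the channel subunit that Klf15 activates in heart, was at -0.08. Of 10 tested genes of the Cited family and the hypoxia response, 2 were higher and 8 lower with a median of -0.04, and the vasodilator peptide gene Adm was at -0.23 (SE 0.12). In the clock list, 12 of 18 genes were higher and the median was 0.33, which was 0.0089 without control 1 and control 2, 0.48 within slide 1 and 0.0078 within slide 2. The 3 clock genes with an unadjusted p below 0.05, beside 0.747% of all features, were the repressors Ciart, at 2.18 (SE 0.92), Bhlhe41, at 0.52 (SE 0.21), and Nfil3, at -0.53 (SE 0.18). Ciart was very low in control 1 and control 2, at -7.40 and -5.99. It read -3.40 and -3.84 in the other controls and -4.11 to -1.71 in dtg hearts.

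Markers of the tissue and of other cells were read the same way. Cardiomyocyte genes had a median difference of 0.01 and 5 of 10 were higher, with list medians of 8.44 to 8.64 log2 units in the 8 hearts. Atrial markers were lower in 8 of 10, with a median of -0.54, but its sign turned between slides, at 1.23 on slide 1 and -2.33 on slide 2, and array weights gave 0.31. Erythroid markers were higher in 5 of 5, with a median of 0.42, which was 0.75 within slide 1 and 0.088 within slide 2. Among the marker lists, 2 genes had an unadjusted p below 0.05, beside 0.747% of all features. They were the smooth muscle actin gene Acta2, at -0.37 (SE 0.11), and the globin gene Hbb-b2, at 0.50 (SE 0.21). Fibroblast, endothelial, smooth muscle, leukocyte and adipocyte medians lay between -0.22 and -0.04, and those of fibroblasts and adipocytes were above 0 within slide 1, at 0.11 and 0.18. Of 8 skeletal muscle markers 3 could be tested, 2 higher and 1 lower, with a median of 0.0037. The part of these cells in the values of the 10 genes was not tested.

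The genes most like each of the 10 over 8 hearts, on values centred within slide, were found among 14285 named features. Sesn3 was nearest to Cacna1g, a T-type calcium channel gene, at r = 0.981, and 33 features reached 0.9. Fbxo32 was nearest to Dnaja3, a mitochondrial chaperone gene, at 0.996, and 804 features reached 0.9. Cited2 was nearest to Olfr1410 at 0.993 with 575 features at 0.9, and Foxo1 was nearest to Cspp1 at 0.994 with 384. Foxo3 was nearest to Slc30a2 at 0.996, Foxo4 to Cd300a at 0.995, Trim63 to Fam234b at 0.991, and Klf15 to Sar1b at 0.990. Ddit4 was nearest to Lama5 at 0.979, although without centring that pair had r = -0.473, and Sesn1 was nearest to Cap2 at 0.950. The counts of near neighbours were lowest for Ddit4, with 8, and Sesn1, with 24.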

How the data were processed

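The authors deposited 1 scanner file per array, which the submitters' processing notes credit to Agilent Feature Extraction version 10.7.3.1, and the processed intensity in those files is background-subtracted by that software. A second table deposited by them holds log2 values, whose scale, centring and direction are unstated. It correlated at 0.9999 to 1 with quantile-normalized log2 intensity centred per probe, so scale and direction follow from that comparison, and the median of a column was -0.0154, -0.0168, 0.0323 and 0.0178 in the control arrays (numbers 1, 2, 3, 4), and 0.0051, 0.00689, -0.0322 and -0.00946 in the dtg arrays. It served as an alternative.

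From the intensities, log2 values minus the 75th percentile of each array were computed, spots of a probe were averaged, and outlier-flagged and control spots were left out. Probes well above background on at least 4 of 8 arrays were kept (26111 of 39429). Probes were named through RefSeq transcript identifiers, which gave a symbol for 26369 probes and none for 13060, and the highest-mean probe of a gene was used. Groups came from the labels. limma 3.58.1 in R 4.3.3 compared 4 dtg with 4 control hearts, with Benjamini-Hochberg adjustment over 21427 features at a threshold of 0.05. Correlations used all 40320 pairings of 8 hearts, two-sided, in Python 3.11.15. With 8 arrays, their number limits the precision. Tested on simulated data of the same size (21399 features), the comparison recovered 5.97% of 67 genes changed by 0.5 log2 units, 44.8% of the 67 at 1 unit and 80.3% of the 66 at 2 units, beside 10 false calls. Genes named in the text were all 10 genes, up to 3 per list by smallest p, a few listed by name whatever their values, and the most alike features. The 10 genes and all lists were chosen with earlier results of these data known. Alternatives covered background correction (normexp on pixel medians), scaling, filters, probe choice, slide, replicate number, variance model and left-out hearts.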

Additional observations from a re-analysis of the deposited data

Results flagged for a closer look

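The Foxo4 signal of control 4 was far below the other controls, at -6.08 against -4.83 to -4.73, with a gap of 0.931 of the range of its group, past Dixon's 95% critical value. It was the only such value in 26 groups of 4 examined over the probes of the 10 genes, and chance gives about 1 in 20. The probe was dim, at 10.0 intensity units in that heart. The same heart was also lowest for Cited2 and highest for Fbxo32. It was lowest for the Foxo1 probe used but not for the other Foxo1 probe.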

How the results depend on the processing

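Under 26 settings, 0 of the 10 genes and 0 features passed an adjusted p of 0.05, and of 251 differences for these genes 42 changed sign, 14 of them when 1 heart was left out. Sesn1 stayed between 0.082 and 0.46 and Sesn3 between -0.40 and -0.065 in every setting. With normexp on all spots, the median of all features moved to -0.12. The differences became -0.33 for Foxo3, -0.37 for Foxo4, 0.23 for Trim63, 0.054 for Klf15, 0.21 for Ddit4 and -0.059 for Cited2. The background mean of that fit was -1489 in control 4, -134 in dtg 4 and -15.1 to 11.6 in the other arrays. Without the dark spots it was 9.21 to 12.2 in every array. The differences were then 0.017 for Foxo3, 0.024 for Foxo4, -0.078 for Trim63, -0.026 for Klf15, -0.075 for Ddit4 and -0.0091 for Cited2. Quantile normalization gave -0.079 for Foxo4 and -0.0089 for Cited2, the authors' deposited values gave -0.079 and -0.0094, and median scaling gave -0.077 for Cited2. Within slide 1, Foxo1 was -0.084, Foxo4 -0.24, Klf15 0.14 and Cited2 -0.41, and within slide 2, Fbxo32 was -0.17 and Ddit4 0.20. Array weights gave -0.036 for Foxo3, -0.036 for Foxo4, 0.0019 for Klf15 and -0.12 for Cited2. Chosen after seeing the data, a fit that dropped control 4 and 2 dtg hearts (3 and 4) and blocked on slide gave -0.14 for Foxo4, 0.020 for Trim63, 0.0021 for Klf15 and -0.079 for Cited2, and leaving out control 1 and control 2 gave -0.19 for Fbxo32 and 0.43 for Ddit4. The causes were not tested.

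Leaving out 1 heart at a time, Foxo1 ranged from -0.050 to 0.20, Foxo3 from -0.0087 to 0.45, Foxo4 from -0.089 to 0.36, Fbxo32 from -0.061 to 0.26, Trim63 from -0.17 to 0.041, Klf15 from -0.16 to 0.072, Ddit4 from -0.31 to 0.21 and Cited2 from -0.32 to 0.17. The count of gene pairs past adjustment was 0, and it was 8 under quantile normalization, 2 with values centred within slide, and 0 to 1 without 1 heart. The count of relations to Dbp and atrial genes was 1, and it was 0 under quantile normalization, 0 under normexp without dark spots, 0 with values centred within slide, and 1 to 2 without 1 heart. Values centred within both slide and group were not counted, since too few pairings remain for a test.

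Deviations of same-numbered hearts correlated at 0.54, -0.54, 0.15 and 0.16. The best match was the same-numbered dtg heart for control 1 and control 4. It was dtg 1 for control 2 and dtg 2 for control 3. Whether the numbers mark pairs of hearts was not tested. With the number as a block, 0 of the 10 genes passed and 276 features had an unadjusted p below 0.05, beside 160 without it. That count was 34 under normexp, 102 without dark spots, 413 with no filter, 252 with slide as a block, 726 and 497 within slides 1 and 2, 780 with array weights, 98 to 330 without 1 heart, 665 without the 3 hearts named above and 896 without control 1 and control 2. Foxo3 and Foxo4 were close to background, which limits their precision.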
